A study of Mus musculus with 6 samples.

Results

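The Krüppel-like factors (KLF) are transcription factors that bind GC-rich and CACCC sequences through zinc fingers at the end of the protein. Described here are 10 KLF genes of the mouse pancreas (Klf2, Klf3, Klf4, Klf5, Klf7, Klf9, Klf10, Klf11, Klf13 and Klf15), out of 36333 genes in the count table, after saline or after cerulein, a cholecystokinin analogue that overstimulates acinar cells and causes acute pancreatitis. They were taken by symbol and chosen by their cerulein-to-saline differences in these same libraries, which ran in opposite directions within the family, with Klf15 much lower. That difference is therefore given for these genes as a description and carries no test. The 10 genes were found in the table and passed the count filter.

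The study compared whole pancreas of wild-type mice (genotype WT) given either saline or cerulein by intraperitoneal injection, with 3 samples in each group. The cerulein mice received 10 doses of 200 µl at 200 µg/kg/h, and RNA was taken as soon as the series of injections ended, to find RNAs that change early in the disease. The labels name no further allele, agent, age or strain, and nothing says how the samples relate to animals, so p-values measure only the spread between these samples, which may be technical. The acinar markers Pnlip, Cel, Cpa1, Cela2a, Cela3b, Ctrb1, Amy2a5 and Amy2b, as a check of the tissue, summed to between 296517 and 556833 CPM (reads of a gene scaled to a common library total) in saline and between 173898 and 218835 CPM in cerulein, and islet and duct markers were also detected. In whole tissue, fewer cells of a type and less RNA per cell cannot be told apart.

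KLF proteins share their DNA-binding end and differ in the part before it, which binds coactivators or corepressors, so members that compete for the same sites can activate or repress. Some are early response genes of injury and growth factors, such as Klf4, Klf5 and Klf10. Others, such as Klf9 and Klf15, are induced by glucocorticoids in many tissues and follow the daily clock, and KLF15 is known as an activator of amino acid breakdown and a regulator of glucose production in liver and muscle.

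The sequence before the transcription start was available from RefSeq (GRCm38.p6, the assembly behind mm10) for 8 of the 10 genes, all but Klf5 and Klf10. The 250 bases before the start are shown for Klf15, the gene with the steep fall, for Klf4, a gene of the opposite direction that shares an element with it, and for Klf9, the gene whose groups overlapped. The E-box CACGTG, a site of basic helix-loop-helix factors that include CLOCK, MYC and USF proteins, is in capitals. The windows are chr6:90462326-90462575 on the plus strand for Klf15, chr4:55532476-55532725 on the minus strand for Klf4 and chr19:23140976-23141225 on the plus strand for Klf9, each printed 5′ to 3′ in the direction of the gene. For Klf15 the table uses a start at position 90462576, which lies 1533 bases inside the outermost RefSeq span of the gene, so its window is upstream of that start but within the gene as annotated. The Klf7 window likewise precedes a start inside the gene, and the other 6 windows adjoin the outer RefSeq end of their genes. By the GENCODE annotation, exons of the same gene cover 133 bases of the Klf3 window, 102 of Klf7, 97 of Klf11 and 29 of Klf2. They cover 0 bases of the Klf15, Klf4, Klf13 and Klf9 windows.
Klf15: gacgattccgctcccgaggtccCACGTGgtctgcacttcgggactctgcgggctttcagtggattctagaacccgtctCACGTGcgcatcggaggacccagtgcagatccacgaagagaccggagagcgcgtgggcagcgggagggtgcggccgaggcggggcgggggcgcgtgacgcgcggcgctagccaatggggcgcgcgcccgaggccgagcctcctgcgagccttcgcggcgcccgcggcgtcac
Klf4: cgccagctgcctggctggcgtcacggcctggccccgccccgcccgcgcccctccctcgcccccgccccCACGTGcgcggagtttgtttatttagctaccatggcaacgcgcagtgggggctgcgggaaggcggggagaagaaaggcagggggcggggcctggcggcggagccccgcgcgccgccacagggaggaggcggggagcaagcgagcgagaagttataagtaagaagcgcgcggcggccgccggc
Klf9: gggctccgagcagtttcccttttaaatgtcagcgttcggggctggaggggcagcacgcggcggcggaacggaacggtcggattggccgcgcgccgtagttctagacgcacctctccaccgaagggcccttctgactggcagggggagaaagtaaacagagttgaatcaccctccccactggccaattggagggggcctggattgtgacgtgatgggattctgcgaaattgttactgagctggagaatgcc

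CACGTG, which reads the same on both strands, occurred 2 times in the Klf15 window, with first bases 228 and 172 bases before the start at 90462576, and 1 time each before Klf4 (182 bases) and Klf11 (214 bases). The element was thus in 3 of 8 KLF windows, against 6.02% of 32851 windows of the same length before RefSeq genes. Among the 9837 windows at least as GC-rich as the least GC-rich KLF window (59.2%), 9.33% held it. Of the genes with the element, Klf15 was lower and Klf4 and Klf11 were higher after cerulein. The GC box GGGCGG, searched on both strands, was in 7 of 8 windows, all but that of Klf9, against 32.7% of all windows. A glucocorticoid element, searched on both strands as GNACA and TGTNC set 3 bases apart, was in 0 of 8 windows and in 0.387% of all. The core TGACG of the cAMP response element was in 5 of 8 windows, on either strand, against 17.8% of all. No E-box shared a base with a GC box or with TGACG. The median GC content was 71.8% in the KLF windows, 52.4% in all windows and 66% in the 9837 GC-rich windows. Other elements were searched in the same way. CACCC was in 6 of 8 windows, CCAAT in 4 and the AP-1 site TGANTCA in 1, against 52%, 33.8% and 6.75% of all. TATAAA, the full cAMP response element TGACGTCA and the CArG box were in 0 of 8 windows, against 12.4%, 1.55% and 1.47% of all. Except for the E-box, the shares given were not matched for GC content. These matches describe letters in these windows only.

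Total counts per library lay between 5335117 and 7610775. CPM values use library totals scaled by TMM, which assumes that most genes do not differ between libraries. By edgeR at an adjusted p under 0.05, 28.7% of the 12441 genes tested were called higher after cerulein and 27.1% lower, 55.8% in all. With library size alone the counts were 5181 higher and 1449 lower, and with upper-quartile factors 2895 and 4190, against 3574 and 3373 with TMM. The median over all genes shifted by 0.56 and -0.20 on the log2 scale under these scalings. Saline replicate 1 stood apart from saline replicates 2 and 3, with the lowest acinar marker sum of the saline group (296517 against 549812 and 556833 CPM) and the highest neutrophil marker sum (203 against 18.2 and 40.9 CPM). Its log2 CPM was above the mean of the other saline libraries for each of the 10 KLF genes, by a median of 0.62, against 6329 of 12441 genes tested and a median of 0.01. The part of these cell markers in that offset was not tested. Of the remaining marker lists, 4 of 8 macrophage genes were higher and none lower, with sums of 152 to 340 CPM in saline and 501 to 559 CPM in cerulein. Of 8 stellate cell genes 2 were higher and 1 lower, of 6 tested islet genes 1 was lower, and of 4 tested red cell genes none was called. Of 6 tested neutrophil genes 1 was higher. The markers Iapp, Ms4a1 and Alas2 lie inside other genes and were at 0, which was treated as no measurement.

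Of the 10 genes, 8 were called higher, 1 (Klf15) lower and 1 (Klf9) not called, beside 28.7% higher, 27.1% lower and 55.8% either way among all genes tested. The groups did not overlap for 9 of the 10, against 63% of all genes tested (32.4% with cerulein above saline and 30.6% below). The genes were chosen on this contrast, so nothing is read from these counts. The median log2 fold change of the 10 was 1.15, against a median near 0 over all genes tested. These calls were the same in each of the 14 alternative settings, among them the leaving out of each library in turn.

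**Figure D1:**
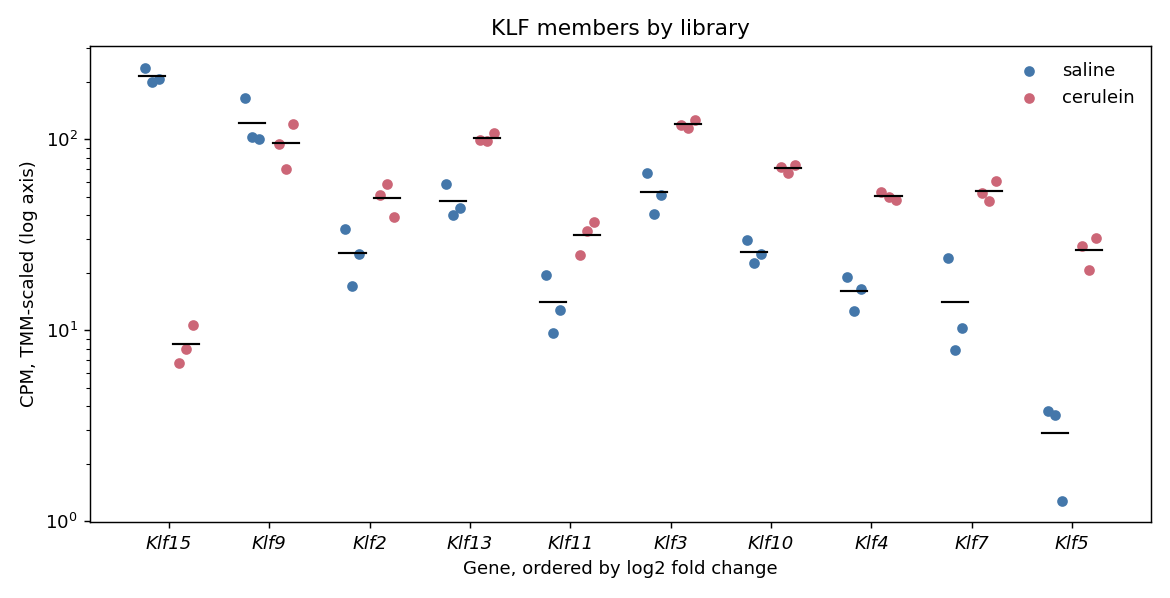
CPM of the 10 KLF genes in each library on a log axis, with saline in blue, cerulein in red and a bar at each group's mean (n = 3). Klf15 stands at 199.6 to 237 CPM in saline and 6.75 to 10.6 CPM in cerulein, the Klf9 groups overlap, and the other genes are higher in each cerulein library.

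Klf15 lies on chromosome 6, 90461043 to 90491803 (mm10), and overlaps no other RefSeq gene. Its level was 237, 199.6 and 206 CPM in saline replicates 1, 2 and 3 and 6.75, 7.96 and 10.6 CPM in cerulein replicates 1, 2 and 3. The cerulein libraries lay far below the lowest saline library, and the means were 214 ± 20.2 and 8.44 ± 1.97 CPM (SD, n = 3 each). The log2 fold change was -4.67 ± 0.21 (SE), or 25.4-fold lower, at rank 47 of the 12441 genes tested when ordered from the most negative value. The cerulein values rest on 57, 68 and 84 reads. Among the KLF genes Klf15 also varied least within saline, with an SD of 0.13 in log2 CPM, whereas Klf7 varied most at 0.82.

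Klf9, a small repressor-type KLF with glucocorticoid and thyroid hormone response, lies on chromosome 19, 23141226 to 23168129. It stood at 164, 103 and 100.02 CPM in saline and 94.8, 70.3 and 121 CPM in cerulein. Cerulein replicate 3 lay above saline replicates 2 and 3, so the groups overlapped, and the log2 fold change was -0.36 ± 0.24 (SE). Its sign depended on scaling, with 0.17 by library size alone. Leaving out saline replicate 1 gave -0.12. Klf9 was the member without a settled direction in these libraries.

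The early response and epithelial members were higher after cerulein. Klf4, a zinc finger activator and repressor of epithelial differentiation and one of the reprogramming factors, stood at 19.1, 12.6 and 16.5 CPM in saline and 53.0, 50.2 and 48.1 CPM in cerulein. The 3 cerulein values lay close together and above each saline value, with a log2 fold change of 1.64 ± 0.18 (SE). Klf5, an activator of epithelial growth found in ducts and in the crypts of the gut, stood at 3.79, 3.60 and 1.29 CPM in saline and 27.8, 20.7 and 30.3 CPM in cerulein. Of the 10 genes it had the largest positive difference in these libraries, 3.10 ± 0.29 (SE) on the log2 scale, and its saline values rest on only 28, 16 and 5 reads.

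Duct markers were higher in the same libraries. Of 7, among them Krt19, Krt7 and Epcam, 6 rose and 1 fell, beside 28.7% higher and 27.1% lower among all genes tested. The summed level of the list was 161 to 195 CPM in saline and 942 to 1189 CPM in cerulein. Their part in the level of Klf5 was not tested.

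The members induced early by transforming growth factor beta, Klf10 and Klf11, repress transcription through the SIN3 complex and restrain growth. Klf10 stood at 29.8, 22.5 and 25.2 CPM in saline and 71.7, 66.7 and 73.2 CPM in cerulein. Klf11 stood at 19.5, 9.69 and 12.9 CPM in saline and 24.7, 33.0 and 36.7 CPM in cerulein. The Klf10 groups were far apart, while for Klf11 cerulein replicate 1 lay only a little above saline replicate 1. The log2 fold changes were 1.44 ± 0.16 and 1.13 ± 0.25 (SE). Klf13, of the same repressor branch and known from T cells and heart, went from 47.4 ± 9.88 to 102 ± 5.005 CPM (SD, n = 3 each), with the groups apart and a log2 fold change of 1.09 ± 0.17 (SE).

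Klf2, which keeps endothelium and T cells quiescent, stood at 33.9, 17.1 and 25.2 CPM in saline and 51.2, 58.0 and 39.0 CPM in cerulein. It had the smallest difference among the 8 genes called higher, 0.94 ± 0.23 (SE) on the log2 scale, and saline replicate 1 and cerulein replicate 3 were the closest libraries. Of the 10 endothelial markers, 2 were higher, 2 lower and 6 not called, beside 28.7% higher and 27.1% lower among all genes tested. Their summed level was 169 to 193 CPM in saline and 169 to 205 CPM in cerulein. Lymphocyte markers, of which 9 were tested and none was called, summed to 10.6 to 80.9 CPM in saline and 56.0 to 105 CPM in cerulein. Both of these cell types carry Klf2, and their part in its level was not tested.

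Klf3, a repressor that recruits the corepressor CtBP, was at 66.5, 40.8 and 50.9 CPM in saline and 118, 114 and 126 CPM in cerulein, a log2 difference of 1.17 ± 0.18 (SE). Klf7, a factor of neurons and of adipocyte precursors, stood at 23.97, 7.88 and 10.3 CPM in saline and 52.1, 47.6 and 60.6 CPM in cerulein. Saline replicate 1 held more than the other saline libraries together, and the log2 fold change of 1.86 ± 0.35 (SE) was 2.53 without it. Klf3, Klf7, Klf10 and Klf13 overlap other RefSeq genes and Klf9 holds a microRNA gene, so reads shared with those genes may be missing. Of these 9 overlapping genes, the 8 in the count table had at most 18 reads in any library, and Gm13748, which overlaps Klf7, was not measured here. Such low counts do not show how many shared reads are missing, as these may be missing from both genes.

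Read ratios within a library do not depend on the scaling between libraries. In each saline library, each of the other 9 genes had fewer reads than Klf15. In each cerulein library each had more. Klf9 came nearest to Klf15 in saline, with log2 ratios of -0.54, -0.96 and -1.04, and had 3.81, 3.14 and 3.51 in cerulein. Klf5 showed the widest shift, from a mean log2 ratio of -6.36 ± 0.84 to 1.65 ± 0.35 (SD, n = 3 each), while that of Klf9 was the narrowest at 4.33. Set against Klf9 in place of Klf15, the groups were also apart for each of the other genes, with shifts from 1.35 for Klf2 to 3.67 for Klf5 and -4.33 for Klf15. Klf15 was thus lower relative to each of the other genes without any scaling factor. The genes were chosen on this contrast, with Klf15 much lower, so this direction follows from the choice and is a description only.

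**Figure D2:**
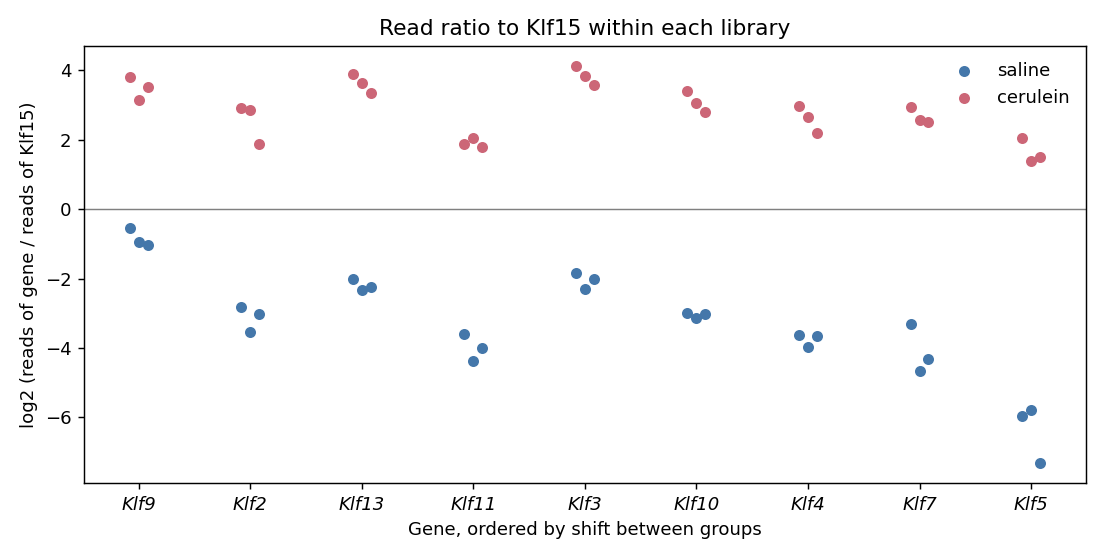
The log2 ratio of each gene's reads to the reads of Klf15 within each library, with saline in blue and cerulein in red, and a line at 0 where both genes have the same number of reads. The saline points lie below 0 and the cerulein points above 0 for all 9 genes.

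Levels were compared between genes as CPM per kilobase of merged GENCODE exons. In saline, Klf15 led with 76.8 ± 7.24 CPM per kb (SD, n = 3), followed by Klf9 with 25.4 ± 7.48 and Klf2 with 13.7 ± 4.53, and the ranges of these 3 genes did not overlap. Klf13, Klf10, Klf4, Klf3, Klf11 and Klf7 followed, with overlapping ranges between neighbours, and Klf5 was last at 0.556 ± 0.268, below the range of Klf7. In cerulein, Klf2 (26.8 ± 5.22), Klf9 (19.8 ± 5.23), Klf10 (16.9 ± 0.820) and Klf4 (16.5 ± 0.808 CPM per kb) led and overlapped their neighbours. Klf15 was now last, at 3.02 ± 0.708 CPM per kb, with a range below that of Klf5. The place of Klf3 depended on the length used, 7 in saline and 6 in cerulein with merged exons, and 4 and 3 with longest transcripts. With longest transcripts, Klf3 stood at 22.9 ± 1.17 CPM per kb in cerulein, ahead of the means of Klf9 (21.2) and Klf4 (16.7). The leading group in cerulein thus also depended on the length used.

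Klf15 made up 49.3%, 57.4% and 54.9% of the summed per-kilobase level of the 10 genes in saline replicates 1, 2 and 3. In cerulein its share was 1.92%, 2.34% and 2.91%. The gap was far wider than the spread within either group. Klf2 went from 9.40% ± 1.71 to 21.3% ± 4.83, Klf4 from 3.65% ± 0.345 to 13.1% ± 0.933 and Klf10 from 4.31% ± 0.177 to 13.4% ± 0.293 of that sum (SD, n = 3 each). The share of Klf9 was 17.4% ± 2.14 in saline and 15.6% ± 3.61 in cerulein, a difference smaller than its spread.

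The sum itself differed less than its make-up. It was 173, 124 and 134 CPM per kb in saline and 126, 122 and 131 CPM per kb in cerulein, so that the groups overlapped. The ratio of the means was 0.876 with TMM, and 1.27 with library size alone. Without Klf15, the sum of the other 9 genes was 87.6, 53.0 and 60.6 CPM per kb in saline and 123, 119 and 127 CPM per kb in cerulein. Klf6, a KLF gene outside the 10, averaged 63.8 CPM in saline and 719 CPM in cerulein. Without scaling by length, the 10 genes together averaged 535 CPM in saline and 607 CPM in cerulein. The sum therefore does not stand for the whole family.

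**Figure D3:**
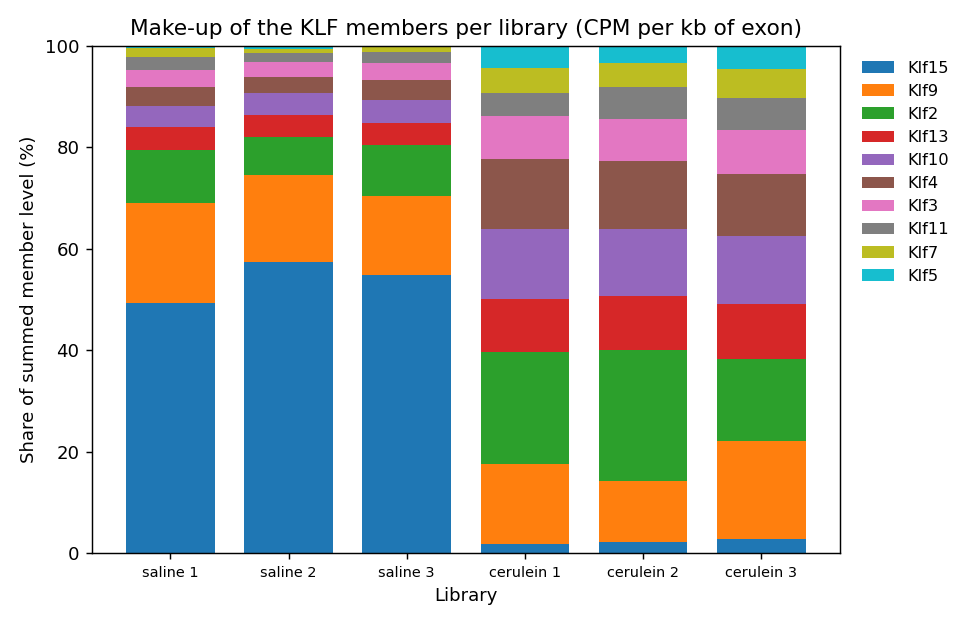
Share of each gene in the summed level of the 10 KLF genes (CPM per kilobase of merged exons), as stacked bars that add up to 100% for each library. Klf15 takes 49.3% to 57.4% of the saline bars and 1.92% to 2.91% of the cerulein bars.

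Other genes of the KLF and SP family, which share the zinc finger type, were not among the 10. Of 7 further KLF genes, 4 were tested, of which 3 rose and 1 fell, beside 28.7% higher and 27.1% lower among all genes tested. Klf6, an injury-induced KLF of many tissues, averaged 63.8 ± 22.9 CPM in saline and 719 ± 20.8 CPM in cerulein (SD, n = 3 each). It rose by 3.49 ± 0.25 on the log2 scale (SE, edgeR adjusted p = 1.49e-07). Klf16 rose by 2.46 ± 0.21 and Klf8, a repressor related to Klf3, by 1.56 ± 0.25 on the log2 scale (adjusted p = 8.05e-07 and 1.77e-04, edgeR). Klf12, another CtBP-binding repressor, fell by 1.46 ± 0.34, from 7.15 ± 0.0931 to 2.60 ± 1.07 CPM (adjusted p = 0.00258, edgeR), a call lost with library size alone. Klf1, Klf14 and Klf17 had at most 2 reads per library. Of the 4 further KLF genes tested, none fell as far as Klf15.

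Of the SP genes, relatives of the KLF genes, 4 of 9 were tested. Sp1 and Sp2 rose by 0.45 ± 0.16 and 0.69 ± 0.20, Sp4 fell by 1.19 ± 0.27, and Sp3 had a log2 fold change of 0.37 ± 0.17, not past the threshold (adjusted p = 0.0281, 0.00911, 0.00222 and 0.0734, edgeR). Sp1 lost its call with upper-quartile factors, with DESeq2 and without saline replicate 3 or cerulein replicate 3. Sp4 lost it with library size alone, whereas Sp3 passed with library size alone, without a count filter and without saline replicate 1. Sp5, Sp6, Sp7, Sp8 and Sp9 had at most 4 reads per library.

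**Figure D4:**
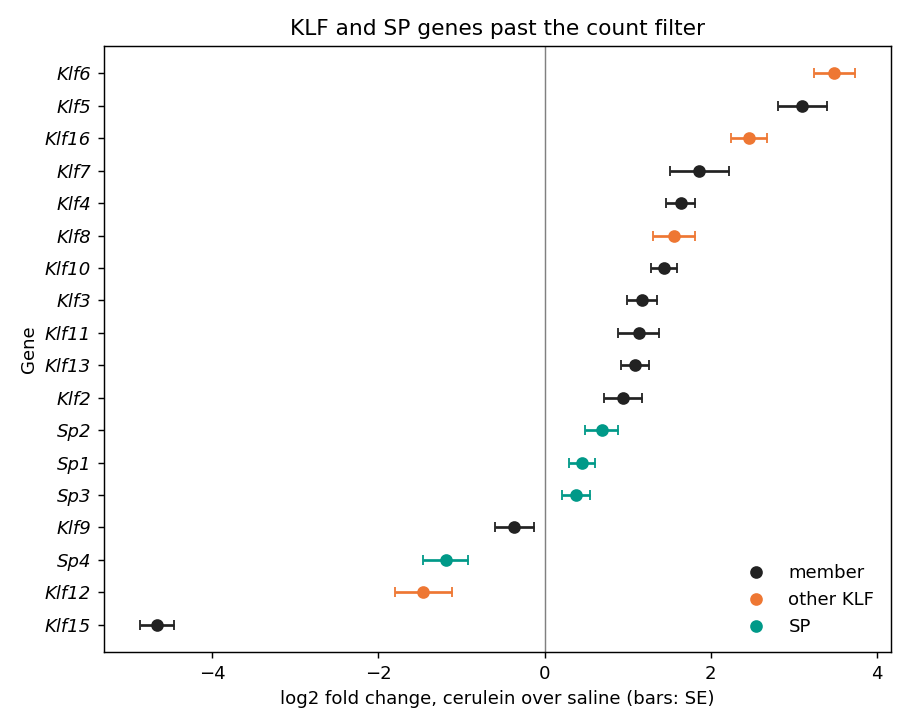
The log2 fold change of cerulein over saline with its SE for each KLF and SP gene past the count filter, with the 10 genes in black, other KLF genes in orange and SP genes in green. Klf15 lies alone at -4.67, and Klf6, Klf5 and Klf16 lie farthest to the other side.

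Genes upstream of the KLF genes were described by lists. In the TGF-beta list, the inducers of Klf10 and Klf11, 9 of 12 tested genes rose, none fell and 3 were not called, with a median log2 fold change of 1.002. Tgif1, a SMAD corepressor, stood at 21.3 ± 1.63 CPM in saline and 199 ± 17.3 CPM in cerulein (SD, n = 3 each). It rose by 3.22 ± 0.17 on the log2 scale (edgeR adjusted p = 1.47e-08). Skil, a negative regulator of SMAD proteins, rose by 1.54 ± 0.18. These shares stand beside 28.7% of all genes called higher.

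The kinase chain from MEKK3 through ERK5 to MEF2, which induces Klf2 and Klf4 in endothelium, rose for 3 of 6 genes and fell for none. Among all genes tested, 28.7% were called higher. Mapk7, encoding ERK5, stood at 7.34 ± 0.903 CPM in saline and 41.4 ± 2.96 CPM in cerulein. It rose by 2.48 ± 0.18 (edgeR adjusted p = 1.88e-07). Map3k3 and Mef2a rose by 0.57 ± 0.19 and 0.55 ± 0.16, and both lost their calls with upper-quartile factors and without cerulein replicate 3. Map3k3 also lost it without saline replicate 3 or cerulein replicate 1.

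In the glucocorticoid list, 4 of 11 genes rose, 4 fell and 3 were not called. Among all genes tested, 28.7% were higher and 27.1% lower. The receptor gene Nr3c1 stood at 63.1 ± 4.65 CPM in saline and 33.7 ± 0.807 CPM in cerulein. It fell by 0.91 ± 0.14 (edgeR adjusted p = 1.27e-04), and its target Fkbp5 fell by 1.21 ± 0.19. Both were chosen after their values were seen, and both lost their calls with library size alone (log2 fold changes -0.35 and -0.66). In that setting 2 genes of the list were lower. Sgk1, a kinase induced by the receptor, fell by 1.41 ± 0.18. Dusp1, a MAPK phosphatase that is also an early response gene, rose by 4.01 ± 0.24 and Ddit4, an inhibitor of mTORC1, by 1.78 ± 0.25. Genes of the list moved in both directions, as did those of the whole set tested.

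The clock list had 3 of 14 tested genes higher, 4 lower and 7 not called, with a median log2 fold change of -0.04. These counts stand beside 28.7% higher and 27.1% lower among all genes tested. Per2, a repressor of the clock, fell by 1.84 ± 0.23, while Nfil3 and Bhlhe40, repressors of clock output and of E-box genes, rose by 3.46 ± 0.30 and 2.79 ± 0.27 on the log2 scale (adjusted p = 2.30e-05, 2.85e-06 and 7.94e-06, edgeR). Without cerulein replicate 1, 2 clock genes were lower, and with library size alone 5 were higher and 2 lower. The clock gene Ciart lies inside another gene and was at 0, which was treated as no measurement.

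Of 12 corepressors and coactivators of KLF proteins, 2 rose, 3 fell and 7 were not called, beside 28.7% higher and 27.1% lower among all genes tested. With library size alone 4 were higher and 0 lower. Ctbp2, the corepressor of KLF3, KLF8 and KLF12, rose by 1.26 ± 0.16, while Ncor1 fell by 0.62 ± 0.16 on the log2 scale. Of 6 ubiquitin ligases, Smurf1 rose by 1.30 ± 0.18, and Wwp1, a ligase of KLF2 and KLF5, fell by 1.47 ± 0.19. Btrc also fell, with a log2 fold change of -0.60 ± 0.18. The call of Btrc was lost with library size alone and without cerulein replicate 1.

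Genes downstream were described in the same way. In the list of amino acid breakdown genes linked to KLF15, 9 of 10 tested genes fell, none rose and 1 (Dld) was not called, with a median log2 fold change of -1.90, beside 27.1% of all genes called lower. With library size alone 1 gene of the list was higher. Bcat2, the mitochondrial aminotransferase of branched-chain amino acids, stood at 169 ± 28.3 CPM in saline and 20.2 ± 0.717 CPM in cerulein. It fell by 3.06 ± 0.18 (edgeR adjusted p = 2.89e-08). Bckdhb, a subunit of the branched-chain ketoacid dehydrogenase, fell by 3.65 ± 0.25 and Ivd, the next enzyme of leucine breakdown, by 3.12 ± 0.20 on the log2 scale. Acinar markers fell in the same libraries, for 7 of 8 genes. Adipocyte markers, from another tissue that expresses Klf15, rose for 1 (Lep) and fell for 2 (Lpl and Fabp4) of 6 tested genes. Their summed levels were 376 to 484 CPM in saline and 157 to 222 CPM in cerulein. Most of the sum was Lpl, with means of 290 CPM in saline and 66.3 CPM in cerulein, and Fabp4, with 93.5 and 38.5 CPM. Adipoq, Cidec and Cfd were not called. The fat-defining Adipoq was at 13.8, 5.18 and 7.71 CPM in saline and 10.2, 4.56 and 4.04 CPM in cerulein. The part of acinar and fat markers in the level of Klf15 was not tested.

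In the list of endothelial genes linked to KLF2 and KLF4, 6 of 6 tested genes rose, with a median log2 fold change of 1.13, beside 28.7% of all genes called higher. S1pr1, a receptor that KLF2 induces, rose by 0.65 ± 0.17, and Edn1 and Sele, genes of vessel tone and leukocyte adhesion that KLF2 is known to restrain, by 1.65 ± 0.38 and 3.36 ± 0.51 (adjusted p = 0.00463, 0.00258 and 9.39e-05, edgeR). The list therefore holds genes that KLF2 induces and genes that it represses, and both kinds were higher.

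Of 7 tested epithelial and cell cycle genes linked to KLF4 and KLF5, 6 rose and 1 (Ccnd1) was not called, beside 28.7% of all genes called higher. The duct markers given above were higher in the same libraries, Krt19 is in both lists, and the part of duct markers in this count was not tested. Krt8, a simple epithelial keratin, rose by 5.24 ± 0.26, the duct keratin gene Krt19 by 4.89 ± 0.25 and Cdh1, encoding E-cadherin, by 3.57 ± 0.21 on the log2 scale (adjusted p = 1.22e-08, 1.34e-08 and 4.02e-08, edgeR).

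Likeness to Klf15 and to Klf5 was measured as the Euclidean distance between log2 CPM profiles over the 6 libraries, each centred on its mean, among 11158 genes. The profiles closest to that of Klf15 were those of Lgals4 (distance 0.569), a galectin, Reg3d (0.686), a secreted lectin, and Ehhadh (0.809), a peroxisomal enzyme of fatty acid oxidation. Lgals4 stood at 25.7, 17.6 and 22.6 CPM in saline and 0.473, 0.936 and 1.14 CPM in cerulein. Those closest to Klf5 were Loxl4 (0.625), a lysyl oxidase, Ephb6 (0.659), an ephrin receptor, and Pdlim7 (0.710), an actin-associated protein. With 2 groups of 3 libraries, the distance reflects mainly the size and direction of the difference.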

How the data were processed

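RNA from 3 saline and 3 cerulein samples was sequenced from TruSeq Stranded mRNA libraries, per the labels' protocols. The deposited table holds raw counts of reads for each gene. Trimmomatic, STAR, HTSeq and mm10 are named in the submitters' processing notes, without settings. For the annotation and the strand setting, nothing is given in the sources used here. The test was that of edgeR 4.0.16 under R 4.3.3 (filterByExpr with minimum count 10 and minimum total 15, TMM, quasi-likelihood F test, two-sided, Benjamini-Hochberg over 12441 genes, threshold 0.05). SEs were derived from F statistics, and CPM values use TMM-scaled library sizes. Total counts of 5335117 to 7610775 limit the precision of genes with few reads. The script was tested on simulated data. Few genes were changed in that simulation, unlike in these libraries, so it does not test the scaling used here. Alternatives were RLE, upper-quartile and no scaling factors, other count filters, DESeq2 1.42.0, limma-voom 3.58.1, each library left out, and a replicate block. Positions are from RefSeq and exon lengths from GENCODE, both on GRCm38.

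The 10 KLF genes and the 11 pathway and 10 marker lists were chosen with earlier results of these data known. Named were the 10 genes, all other KLF and SP genes, up to 3 genes with the smallest p of each pathway list, and the 3 genes nearest in profile to Klf15 and to the member with the largest rise. Protein sequences were not used here. Results for some of the genes that this rule names are not reported here.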

Additional observations from a re-analysis of the deposited data

How the results depend on the processing

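The calls of the 10 KLF genes (8 higher, 1 lower) were the same in all 14 alternative settings. Among all genes tested, 28.7% were higher and 27.1% lower with the main setting. The 10 genes were chosen on this contrast in these same libraries, so unchanged calls add no support. The direction of Klf9 changed with library size alone (log2 fold change 0.17). So did that of the summed level of the 10 KLF genes (cerulein over saline 1.27, against 0.763 to 0.973 in the other alternatives). With library size alone, 1449 genes in all and 13 of the 91 tested network genes were lower, in place of 3373 and 24, a setting that moved the median of all genes by 0.56. The share of Klf15 in the summed level was 52.1% to 56.2% in saline and 2.13% to 2.62% in cerulein over the alternatives. For 37 other named genes, 498 of 518 alternative values kept direction and side of the threshold, 17 lost the call, 3 gained it and none changed direction. Same-numbered samples correlated in their deviations from the group means at 0.19, 0.22 and -0.15, against -0.29 to 0.09 for samples of different numbers. These values do not settle whether the numbers mark pairs. The labels give the numbers no meaning, so they were not taken as pairs. With the replicate block, 3673 genes were higher and 3401 lower, and the 8 and 1 KLF calls were unchanged. The planned comparison of zinc finger sequences was not run, as protein sequences were not used here. Depth limits Klf5 in saline, with 5 reads in 1 library.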
